A study of Mus musculus with 8 samples.

Results

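Liver RNA from mice labelled knockout for Nfib in hepatocytes was set against liver RNA from wild-type mice, over tumor and normal tissue. All genes with at least 10 counts in at least 3 of the 8 libraries were compared, which kept 13652 of the 21878 genes of the count table. The knockout side held knockout tumors 2 and 3 and knockout normal liver 3. The wild-type side held wild-type tumors 1, 2 and 3 and wild-type normal livers 2 and 3. All mice were C57BL/6, and their labels give an age of 14 to 16 days for tumor and normal liver alike. The knockout mice carried floxed Nfib alleles and Alb-Cre, a recombinase driven by the albumin promoter and so active in hepatocytes. Liver cells of other types may keep the gene. Whether the wild-type mice carried the floxed alleles or Cre, and how the tumors arose, are not given in the sources used here. The title of the series concerns liver tumors and the urea cycle.

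Nuclear factor I proteins are transcription factors that bind DNA as dimers, and Nfib is known for its part in lung and brain development. Hepatocytes hold most of the body's capacity to break down amino acids, and they turn the ammonia released in that process into urea through the urea cycle. Notch signaling, in which a ligand on 1 cell triggers cleavage of a receptor on its neighbor and the factor RBPJ then switches on targets such as Hes1, is known in liver for directing progenitor cells towards bile duct fate.

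Total counts ran from 11912549 to 19965842 per library. Levels below are CPM, counts scaled to a common library total and corrected with the TMM factors of edgeR, which ran from 0.902 to 1.178. Nfib, on chromosome 4 at 82290173 to 82705750 of GRCm38, stood at 64.7, 46.0 and 77.9 CPM in wild-type tumors 1, 2 and 3. The wild-type normal livers 2 and 3 gave 88.1 and 79.1 CPM. It stood at 84.6 and 81.8 CPM in knockout tumors 2 and 3 and at 85.4 CPM in knockout normal liver 3. The knockout libraries lay inside the wild-type range, and the fitted difference was 0.27 ± 0.19 (log2 fold change ± SE, edgeR adjusted p = 0.764). Counts over a whole gene do not resolve a deleted exon, so this neither checks nor contradicts the genotype, and the names knockout and wild type are those of the labels. The related Nfia, Nfic and Nfix had fitted differences of 0.31 ± 0.33, 0.11 ± 0.15 and 0.28 ± 0.31 on the log2 scale.

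Several libraries stood apart from the rest. Wild-type tumor 2 lay at −122.5 on a first principal component that carried 46.2% of the variance, where the other 7 libraries lay between −21.6 and 32.4. The summed level of 14 skeletal muscle genes was 2612 CPM in knockout tumor 2, 972 CPM in knockout normal 3 and 158 CPM in wild-type tumor 1, against 1.69 to 18.5 CPM elsewhere. Knockout tumor 2 also held 213 CPM of Krt13, a keratin of squamous epithelium, which was at most 0.284 CPM in the other libraries when scaled by library totals. On that scale wild-type normal 2 held 59.9 CPM of Ddx3y, a Y-linked gene. Wild-type tumor 2 held 5.31 CPM of it, and the other 6 libraries no more than 0.118 CPM. Summed levels of 10 hepatocyte markers ran from 79244 CPM in wild-type normal 2 to 219803 CPM in wild-type tumor 2, so all 8 libraries were rich in hepatocyte RNA. Tumor and normal libraries of number 3 were close within each genotype, with Pearson correlations of log2 CPM across genes of 0.988 in wild type and 0.98 in knockout, against 0.872 for wild-type number 2. Whether equal numbers mark 1 animal is not stated, and the 3 knockout libraries may come from 2 animals. In bulk tissue, fewer cells of a type and less RNA per cell cannot be told apart.

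No gene passed the test of genotype in edgeR's quasi-likelihood fit with tissue as a covariate. Of 13652 genes, 0 (0%) were called higher and 0 (0%) lower at an adjusted p of 0.05, and the smallest adjusted p was 0.736. At an unadjusted p of 0.05, 490 genes (3.59%) stood higher and 418 (3.06%) lower. Over both directions together, 683 would be reached by chance if no gene differed and p-values were uniform. limma-voom also called 0 genes, and DESeq2 called 20 higher (0.146%) and 8 lower (0.0586%). Fitted log2 fold changes ran from −0.87 at the 5% quantile to 0.73 at the 95% quantile, with a median of −0.02, and 46.9% of genes were above 0. What follows is therefore a description of levels in these libraries, with counts of separated list members set beside the share of all genes.

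For a view that rests on no model, genes were counted whose 3 knockout libraries all lay above, or all below, the 5 wild-type libraries. There were 502 such genes above (3.68% of those tested) and 385 below (2.82%), with median log2 fold changes of 0.54 and −0.43. These counts shift with single libraries: without knockout tumor 2 they were 1511 (11.1%) and 1154 (8.45%). Leaving out a library can only keep or raise such a count. Genes among the 12 with the smallest p in each direction are described first.

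**Figure D1:**
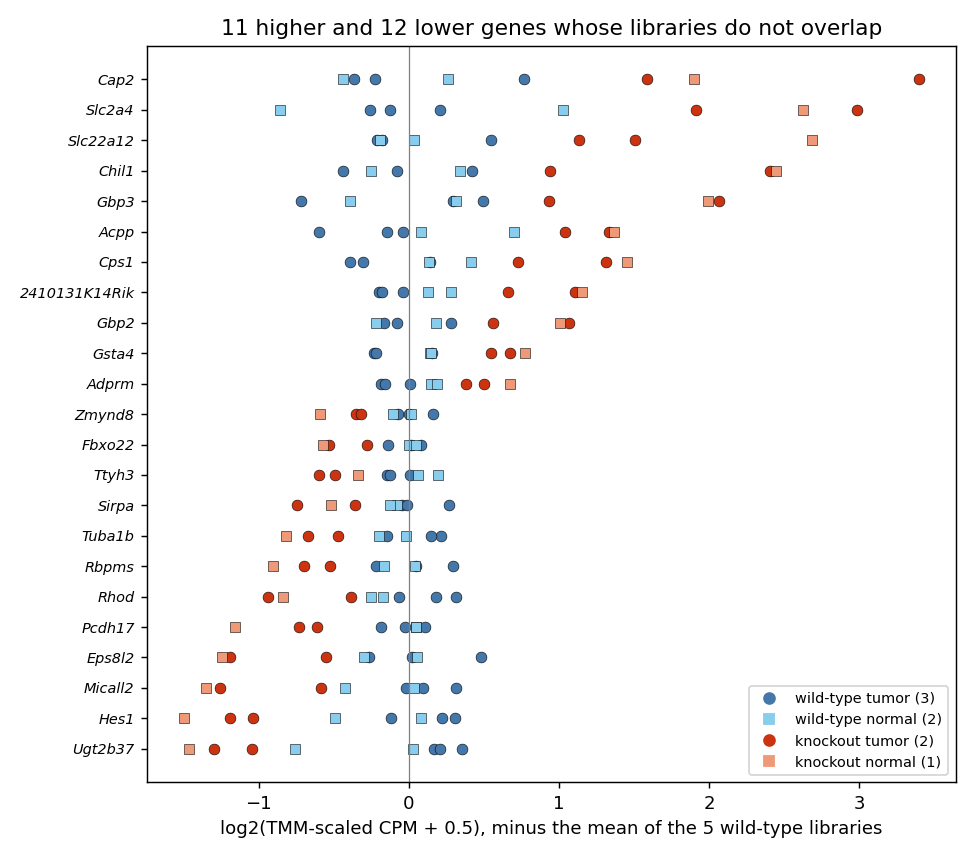
Levels of 11 higher and 12 lower separated genes in each library, as log2(TMM-scaled CPM + 0.5) minus the mean of the 5 wild-type libraries. Circles are tumors and squares normal livers, blue for wild type and red for knockout. Separation of the colors follows from the choice of genes, and the spread within each color is what the plot adds: Cap2 runs from 2.73 to 10.8 CPM over the knockout libraries, and Adprm from 16.1 to 19.8 CPM.

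Promoter sequence was examined for these genes and the urea cycle genes, because Nfib encodes a DNA-binding factor and Hes1 answers to RBPJ. RefSeq windows of GRCm38.p6 were matched for 20 of 32 genes, and the 250 bases before each start were searched on both strands. Hes1, Cps1 and Gsta4 were among the genes without a window, so their promoters were not searched. The nuclear factor I palindrome, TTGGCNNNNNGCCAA, was found in 0 of the 20 genes and in 0.0444% of all 27025 genes with a window. A motif of 1 arm, TTGGCA, was found in 3 of 20 (Gbp3, Ttyh3 and Fbxo22) against 14.1% of all genes. The RBPJ motif TGGGAA was found in 4 of 20 (Chil1, Gbp3, Ugt2b37 and Zmynd8) against 24.1% of all genes. This single-arm motif shares its first 5 letters with the palindrome. A match in these letters is a description and not a bound site. The counts of the single-arm and RBPJ motifs were near the shares of all genes. Motifs lay in the higher genes Chil1 and Gbp3 as well as in lower genes. The windows of 3 lower genes with a motif are shown as examples, and that of Zmynd8, also lower, is not. Motifs stand in capitals on whichever strand they lie. Each window is read 5′ to 3′ on the gene's own strand and ends at the base before the start.
Ugt2b37 (chr5:87254789-87255038, minus strand, RBPJ motifs 129 and 90 bases before the start): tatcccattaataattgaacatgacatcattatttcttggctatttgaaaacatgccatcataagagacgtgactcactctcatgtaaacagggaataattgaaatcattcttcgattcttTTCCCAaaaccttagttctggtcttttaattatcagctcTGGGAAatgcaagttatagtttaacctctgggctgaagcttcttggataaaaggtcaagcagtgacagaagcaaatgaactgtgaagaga
Fbxo22 (chr9:55208685-55208934, plus strand, single-arm motifs 204 and 174 bases before the start): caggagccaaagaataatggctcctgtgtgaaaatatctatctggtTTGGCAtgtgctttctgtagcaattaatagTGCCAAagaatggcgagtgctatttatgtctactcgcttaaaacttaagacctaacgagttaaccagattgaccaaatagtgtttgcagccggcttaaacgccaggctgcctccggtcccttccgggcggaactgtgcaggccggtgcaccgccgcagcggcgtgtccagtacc
Ttyh3 (chr5:140649032-140649281, minus strand, single-arm motif 200 bases before the start): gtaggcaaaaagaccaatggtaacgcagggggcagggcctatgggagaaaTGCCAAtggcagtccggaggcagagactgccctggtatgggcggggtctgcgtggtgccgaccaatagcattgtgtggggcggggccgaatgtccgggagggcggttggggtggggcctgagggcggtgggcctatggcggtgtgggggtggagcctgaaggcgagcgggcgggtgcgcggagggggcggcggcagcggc

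Hes1, a repressor and a classical Notch target, had the smallest p of all 13652 genes. Hes1 lies on chromosome 16 at 30064384 to 30067796 of GRCm38. It stood at 32.2, 30.3 and 23.8 CPM in wild-type tumors 1, 2 and 3. Normal livers 2 and 3 of the wild type gave 18.3 and 27.5 CPM. It stood at 11.1 and 12.4 CPM in knockout tumors 2 and 3 and at 8.87 CPM in knockout normal 3. All knockout libraries were low, and the nearest wild-type library was normal liver 2. The fitted difference was −1.32 ± 0.18 on the log2 scale (edgeR adjusted p = 0.736, DESeq2 adjusted p = 2e-05). It stayed between −1.40 and −1.22 when any 1 library was left out.

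Among 21 tested Notch receptors, ligands and targets, 4 were separated below the wild type (19%, against 2.82% of all genes) and 0 above, and the list median was −0.24, or −0.46 without knockout tumor 2. Notch4, an endothelial receptor, stood at 15.3, 15.7, 13.6, 13.6 and 12.7 CPM over the wild-type libraries and at 5.63, 11.5 and 10.1 CPM over the knockout libraries. Dll4, a ligand made by endothelial cells, stood at 6.12 to 9.83 CPM in wild type and 4.98 to 6.07 CPM in knockout. Its groups thus nearly touched. Hes6, a relative of Hes1 that counters it, stood at 35.7 to 68.9 CPM in wild type and 28.1 to 33 CPM in knockout, and its highest library was wild-type normal 2. Jag1, a ligand, was at 8.57 to 21.0 CPM in wild type and 6.35 to 10.6 CPM in knockout, so its groups overlapped. The receptors Notch1 and Notch2 and the factor Rbpj differed by −0.20 ± 0.17, −0.04 ± 0.20 and 0.15 ± 0.18 on the log2 scale. Scaled by library totals, 2 of the 21 were separated below (9.52%, against 3.11% of all genes on that scale). Of 15 endothelial markers 14 were below 0, where 46.9% of all genes were above 0. Only Cdh5 was separated below (6.67%, against 2.82% of all genes), and the median log2 fold change was −0.18. That median was 0.16 over tumors and −0.84 over normal livers, 0.14 without knockout normal 3 and −0.48 without wild-type tumor 2, and the part of endothelial content in the Notch4 and Dll4 values was not tested.

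Ugt2b37, an enzyme that couples glucuronic acid to its substrates, stood at 6.29, 5.45, 5.62, 2.64 and 4.90 CPM over the wild-type libraries (tumors 1, 2 and 3, then normal livers 2 and 3). It stood at 1.66, 2.07 and 1.42 CPM in knockout tumors 2 and 3 and normal 3. The lowest wild-type library, normal 2, was close to the highest knockout library. The fitted difference was −1.56 ± 0.29 (edgeR adjusted p = 0.736, DESeq2 adjusted p = 0.00277). Ugt2b37 belongs to a family of near-identical genes, and its counts are uncertain where reads were shared among them. Of 16 tested UDP-glucuronosyltransferases, 1 was separated below (6.25%, against 2.82% of all genes) and 1, Ugt1a6b, above (6.25%, against 3.68%).

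Tuba1b, an alpha-tubulin of microtubules, stood at 47.8, 45.6 and 37.2 CPM in wild-type tumors 1, 2 and 3. Normal livers 2 and 3 of that genotype gave 35.9 and 40.7 CPM. Knockout tumors 2 and 3 gave 29.6 and 25.7 CPM, and knockout normal 3 gave 23.2 CPM. Tubulin and actin genes have near-identical copies, so their counts are uncertain where reads were shared. The groups were separated in both tissues, with a fitted difference of −0.68 ± 0.13 (edgeR adjusted p = 0.736, DESeq2 adjusted p = 0.0108). Among 16 tested tubulins the median was −0.50, 13 were below 0, and Tuba1b, Tubb5 and the nucleating gamma-tubulin Tubg1 were separated below (18.8%, against 2.82% of all genes). Tubb5 stood at 147 and 159 CPM in wild-type tumors 1 and 2, 90.4 to 93.1 CPM in the other wild-type libraries and 78.6 to 88.6 CPM in knockout. Its gap was thus small beside the spread among wild-type libraries. Tubg1 stood at 22.7 to 31.3 CPM in wild type and 18 to 20 CPM in knockout. Of 29 actin cytoskeleton and S100 genes, 3 were separated below (10.3%, against 2.82%): Actb, Cfl1 and Pfn1, which encode beta-actin, the filament-severing cofilin and the monomer-binding profilin. Actb stood at 598 to 1018 CPM in wild type and 473 to 520 CPM in knockout.

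Among the other lower genes, Rbpms encodes an RNA-binding protein. It stood at 52.9 to 75.7 CPM in wild type and 32.7 to 42.7 CPM in knockout. The fitted difference was −0.74 ± 0.15 (edgeR adjusted p not below 0.736, DESeq2 adjusted p = 0.0177). Eps8l2, an actin regulator, stood at 76.5 to 132 CPM in wild type and 39.6 to 64.3 CPM in knockout. Micall2, which acts in the recycling of cell junction proteins, stood at 4.08 to 7.13 CPM in wild type and 1.91 to 3.59 CPM in knockout. Both had lower values in the number 3 knockout libraries than in knockout tumor 2. Rhod, a small GTPase of the endosome, stood at 27.0 to 40.3 CPM against 16.6 to 24.6 CPM. Sirpa, the macrophage receptor for CD47, stood at 43.0 to 56.6 CPM against 27.9 to 36.5 CPM. Pcdh17, a protocadherin, stood at 4.11 to 5.15 CPM against 1.85 to 2.92 CPM. Ttyh3, Zmynd8 and Fbxo22 had the smallest fitted differences of the 12, at −0.48 ± 0.11, −0.44 ± 0.11 and −0.47 ± 0.12.

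**Figure D2:**
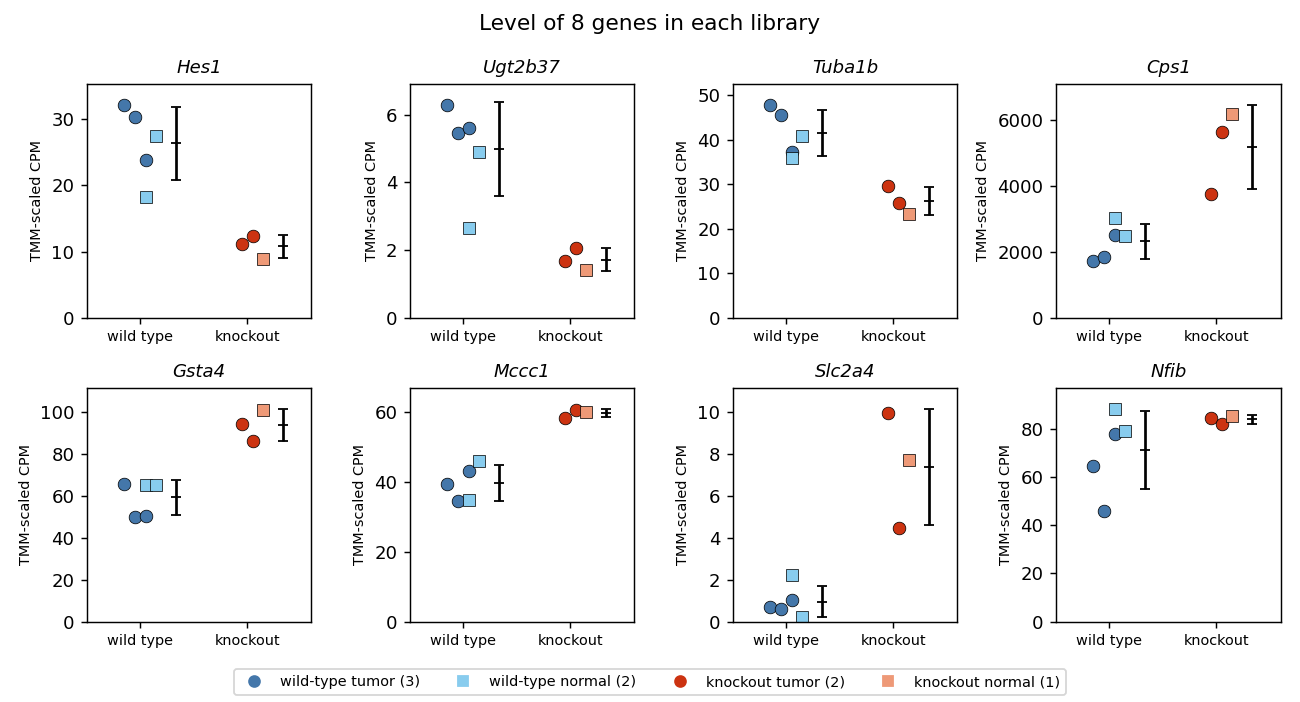
TMM-scaled CPM of 8 genes in each of the 8 libraries, with the mean and SD of each genotype beside the points (5 wild-type and 3 knockout libraries). Hes1, Ugt2b37 and Tuba1b are lower and Cps1, Gsta4, Mccc1 and Slc2a4 higher in every knockout library, while the knockout values of Nfib, 81.8 to 85.4 CPM, lie inside the wild-type range of 46.0 to 88.1 CPM.

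Enzymes of amino acid breakdown made up the list with the largest share of separated genes. Of 41 tested members, 23 stood above all wild-type libraries (56.1%, against 3.68% of all genes), 0 stood below, and 0 passed edgeR's adjusted threshold. The list median was 0.67 and 38 of 41 were above 0. The list's median deviation from the mean of the 8 libraries was 0.32, 0.46 and 0.50 in knockout tumors 2 and 3 and normal 3. For the wild type it was −0.26, −0.88 and 0.07 in tumors 1, 2 and 3, and −0.04 and 0.12 in normal livers 2 and 3. Wild-type tumor 2 was by far the lowest, and without it the median was 0.53 and 23 of 41 were separated, against 5.4% of all genes. Scaled by library totals, 17 of 41 (41.5%) were separated, against 2.84% of all genes on that scale. With knockout tumor 3 as the only knockout library, so without both muscle-rich ones, 29 of 41 (70.7%) were, against 15.5% of all genes.

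The members spanned several routes. Got1, the cytosolic aspartate aminotransferase, stood at 183, 56.0, 275, 255 and 224 CPM over the wild-type libraries, and at 361, 943 and 1005 CPM in knockout tumor 2, tumor 3 and normal 3. Its fitted difference was 1.98 ± 0.51 (edgeR adjusted p = 0.736, DESeq2 adjusted p = 0.0533), and the number 3 libraries stood far above knockout tumor 2. Mccc1, a subunit of the carboxylase of leucine breakdown, was the most even: 39.6, 34.5, 43.2, 34.8 and 46.2 CPM in wild type, and 58.5, 60.7 and 60.2 CPM in knockout. Its difference was 0.60 ± 0.13. Its partner Mccc2 stood at 28.9 to 55.7 CPM against 62.9 to 70.5 CPM, and Ivd, which acts upstream in the same route, at 140 to 215 CPM against 239 to 251 CPM.

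In tyrosine breakdown, Tat, the enzyme of its first step, stood at 466 to 1918 CPM in wild type and 2190 to 4512 CPM in knockout. Hpd, of the second step, stood at 12.8 CPM in wild-type tumor 2, 1413 to 2308 CPM in the other wild-type libraries and 2559 to 3739 CPM in knockout. Its fitted difference was 1.13 ± 1.08. Hgd, Gstz1 and Fah, which complete the route, were also separated above. In the methionine cycle, Mat1a, which makes S-adenosylmethionine, stood at 665 to 2710 CPM against 3216 to 5731 CPM. Gnmt, which uses it, stood at 65.4 to 749 CPM against 1182 to 1419 CPM, and Ahcy, which clears the product, at 613 to 987 CPM against 999 to 1600 CPM. Aldh4a1 and Prodh, of proline breakdown, stood at 228 to 380 CPM against 495 to 528 CPM and at 7.39 to 126 CPM against 208 to 293 CPM. Gls2, the liver glutaminase that releases ammonia, stood at 151 to 455 CPM against 530 to 549 CPM. Members that overlapped included Glud1, Amt and Gcsh, which differed by −0.01 ± 0.33, −0.23 ± 0.24 and −0.03 ± 0.16. Among pathways of the deposited annotation with at least 20 tested genes, the largest share was that of alanine, aspartate and glutamate metabolism, with 12 of 27 genes separated above (44.4%, against 3.68%).

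Cps1, which fixes ammonia as the first step of the urea cycle, stood at 1732, 1832 and 2503 CPM in wild-type tumors 1, 2 and 3. The corresponding normal livers 2 and 3 gave 3021 and 2493 CPM. It stood at 3761 and 5644 CPM in knockout tumors 2 and 3 and at 6192 CPM in knockout normal 3. Every knockout library was above every wild-type library, by a fitted 1.20 ± 0.26 (edgeR adjusted p = 0.736, DESeq2 adjusted p = 0.000417). Of 9 urea cycle genes, 4 were separated above (44.4%, against 3.68% of all genes): Cps1, Ass1, Asl and the ornithine carrier Slc25a15. Otc, the enzyme of the second step, stood at 191 to 616 CPM in wild type and 503 to 579 CPM in knockout, and its groups overlapped. Arg1, which releases urea, stood at 177 to 1692 CPM against 1679 to 2141 CPM and overlapped through wild-type normal 2 and knockout tumor 2. Nags, which makes the activator of Cps1, stood at 42.1 to 59.3 CPM against 55.5 to 66.6 CPM.

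**Figure D3:**
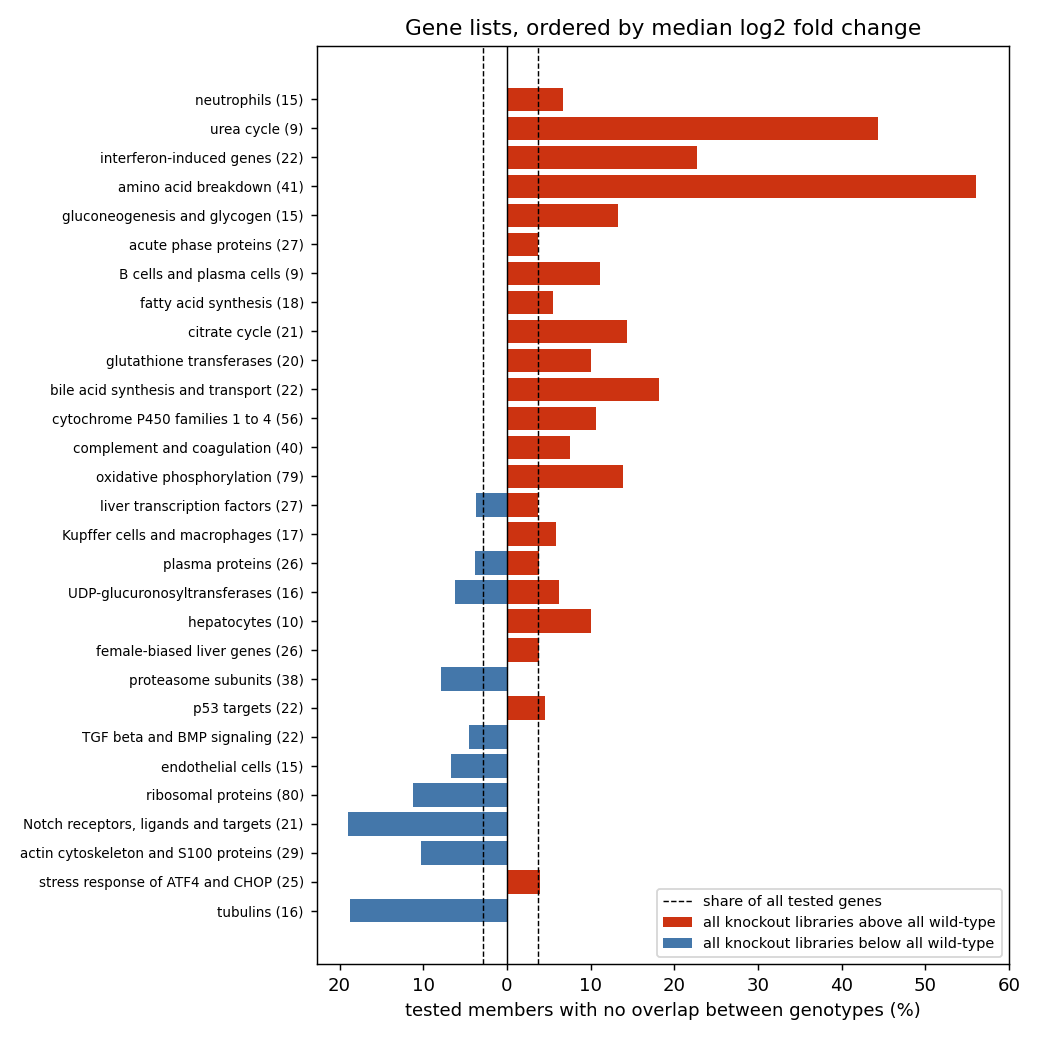
Share of tested members of each gene list with all 3 knockout libraries above (red, to the right) or below (blue, to the left) all 5 wild-type libraries, for lists with at least 1 such member. The number of tested genes stands in brackets and dashed lines mark the shares over all genes, 3.68% and 2.82%. Amino acid breakdown reaches 56.1%, and Notch genes and tubulins reach 19% and 18.8% on the lower side.

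Genes of mitochondrial respiration stood slightly higher in the fit, but wild-type normal 3 was about level with knockout tumor 2. All 21 tested citrate cycle genes had a fitted log2 fold change above 0, where 46.9% of all genes did, with a median of 0.32. Idh2, Idh3b and Mdh1 were separated above (14.3%, against 3.68% of all genes). Scaled by library totals, 6 of the 21 were (28.6%, against 2.84%). Idh2, the mitochondrial NADP-dependent isocitrate dehydrogenase, stood at 94.8 to 140 CPM in wild type and 161 to 192 CPM in knockout. Fh1, fumarase, had a fitted 0.75 ± 0.27 but overlapped, since wild-type normal 2 at 234 CPM was above knockout tumor 2 at 181 CPM. Of 79 oxidative phosphorylation genes, 71 were above 0, and the median was 0.17, or 0.23 over tumors and 0.09 over normal livers. The list's median deviation was −0.19, −0.31 and 0.04 in wild-type tumors 1, 2 and 3. It was 0.02 and 0.12 in wild-type normal livers 2 and 3. Knockout tumors 2 and 3 and normal 3 gave 0.11, 0.06 and 0.16. Scaled by library totals, 7 genes were separated above (8.86%, against 2.84%). With TMM factors 11 were (13.9%, against 3.68%), among them the ATP synthase subunits Atp5a1 and Atp5b. Atp5b stood at 629 to 907 CPM in wild type and 912 to 1118 CPM in knockout, a gap of a few CPM. One of the 11, Cox7a1, encodes the heart and muscle form of its subunit, and muscle transcripts were high in knockout tumor 2 and normal 3, whose part in its value was not tested. Of 80 ribosomal protein genes 75 were below 0, with a median of −0.18 and 9 separated below (11.2%, against 2.82%). The ribosomal median was −0.05 without wild-type tumor 2, in which they were highest, and −0.31 without knockout normal 3.

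Among detoxification and bile acid genes, Gsta4, a glutathione transferase that clears the lipid aldehyde hydroxynonenal, was the most even. It stood at 65.6, 49.9, 50.5, 65.0 and 65.3 CPM in wild type and at 94.1, 86.0 and 101 CPM in knockout, a fitted 0.68 ± 0.13 (edgeR adjusted p = 0.736, DESeq2 adjusted p = 0.00579). Gsta3 of the same family stood at 495 to 958 CPM against 1196 to 1466 CPM. Of 56 cytochrome P450 genes of families 1 to 4, 6 were separated above (10.7%, against 3.68% of all genes). Scaled by library totals, 4 were (7.14%, against 2.84%). Cyp2g1, which is also on the list of female-biased genes, stood at 1.39 to 5.74 CPM in wild type and at 8.83, 13.1 and 21.1 CPM in knockout. Cyp7a1, the rate-limiting enzyme of bile acid synthesis, stood at 47.8, 99.0, 97.8, 38.5 and 76.0 CPM in wild type and at 211, 119 and 112 CPM in knockout, so knockout tumor 2 was the highest. Akr1d1, Slc27a5 and Slc10a1, of bile acid synthesis, conjugation and uptake, were the other 3 of 22 genes separated above (18.2%, against 3.68%). Slc10a1 stood at 15.8 CPM in wild-type tumor 2, 392 to 630 CPM in the other wild-type libraries and 667 to 785 CPM in knockout.

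Genes induced by interferon stood higher mainly in the number 3 knockout libraries. Gbp3, a guanylate-binding protein of cell-autonomous defense, stood at 14.9, 7.12, 17.2, 9.06 and 15.1 CPM in wild type, and at 23.5, 51.9 and 49.3 CPM in knockout tumor 2, tumor 3 and normal 3. Its fitted difference was 1.71 ± 0.37 (edgeR adjusted p = 0.736, DESeq2 adjusted p = 0.0277). Gbp genes are close paralogs, so their counts are uncertain where reads were shared. Gbp2 stood at 8.06 to 11.6 CPM against 14.2, 20.4 and 19.5 CPM. Of 22 genes of the list 5 were separated above (22.7%, against 3.68% of all genes), namely these and Gbp7, Oasl1 and Irgm1. Chil1, a chitinase-like protein made by macrophages and neutrophils, stood at 0.5 to 1.32 CPM against 2.10, 6.68 and 6.90 CPM. The same libraries held neutrophil transcripts: S100a9 stood at 114 and 108 CPM in knockout tumor 3 and normal 3 and at 10.4 CPM in knockout tumor 2, against 11.4 to 20.1 CPM in wild type. Over 15 neutrophil genes the list's median deviation was 2.22 and 1.59 in those libraries and −1.15 to −0.25 in the other 6. The summed level of the 15 genes was 739 and 702 CPM in those libraries, but also 744 and 735 CPM in wild-type tumors 1 and 2, against 77.4 to 114 CPM in the other 4. The part of neutrophil content in the values of Chil1 was not tested.

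Clock genes showed the same split within the knockout side. Of 20 clock genes 0 were separated, where 3.68% of all genes were above and 2.82% below. The median was 0.38, or 0.22 without knockout normal 3 and 0.53 without knockout tumor 2. Without knockout tumor 2, 11 were separated above (55%, against 11.1% of all genes) and 4 below (20%, against 8.45%). Per3, a period protein, stood at 62.9 and 54.3 CPM in knockout tumor 3 and normal 3 and at 30.7 CPM in knockout tumor 2, against 18.5 to 42.3 CPM in wild type. Ciart, a repressor of the clock, stood at 71.9 and 81.1 CPM in those libraries and 8.77 CPM in knockout tumor 2, against 5.39 to 46.3 CPM in wild type. The hour of tissue collection is not given in the sources used here, and its part was not tested.

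Slc2a4 and Cap2 are genes of striated muscle, an insulin-responsive glucose transporter and an actin-binding protein. Slc2a4 stood at 0.719, 0.612, 1.03, 2.21 and 0.233 CPM in wild type and at 9.99, 4.50 and 7.70 CPM in knockout tumor 2, tumor 3 and normal 3. Cap2 stood at 0.292 to 1.33 CPM in wild type and at 10.8, 2.73 and 3.51 CPM in knockout. Both were highest in knockout tumor 2, which held the most muscle RNA. Acta1, skeletal actin, was at 880 CPM there, 223 CPM in knockout normal 3 and 0.175 CPM in knockout tumor 3, by library totals. With knockout tumor 3 as the only knockout library, the fitted differences were 2.51 for Slc2a4 and 1.97 for Cap2, against 3.01 and 3.08 with all libraries. The part of muscle RNA in these values was not tested.

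Among the remaining higher genes, Acpp encodes prostatic acid phosphatase. It stood at 3.36 to 8.99 CPM in wild type and 11.5 to 14.5 CPM in knockout. The fitted difference was 1.34 ± 0.24 (edgeR adjusted p = 0.736, DESeq2 adjusted p = 0.00307). 2410131K14Rik stood at 4.91 to 7.06 CPM against 9.32 to 13.3 CPM, and Adprm, a manganese-dependent phosphatase of ADP-ribose, at 10.7 to 14.0 CPM against 16.1 to 19.8 CPM. Slc22a12, the urate transporter, was low in wild type, at 0.222 to 0.725 CPM, against 1.88, 1.34 and 4.87 CPM.

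**Figure D4:**
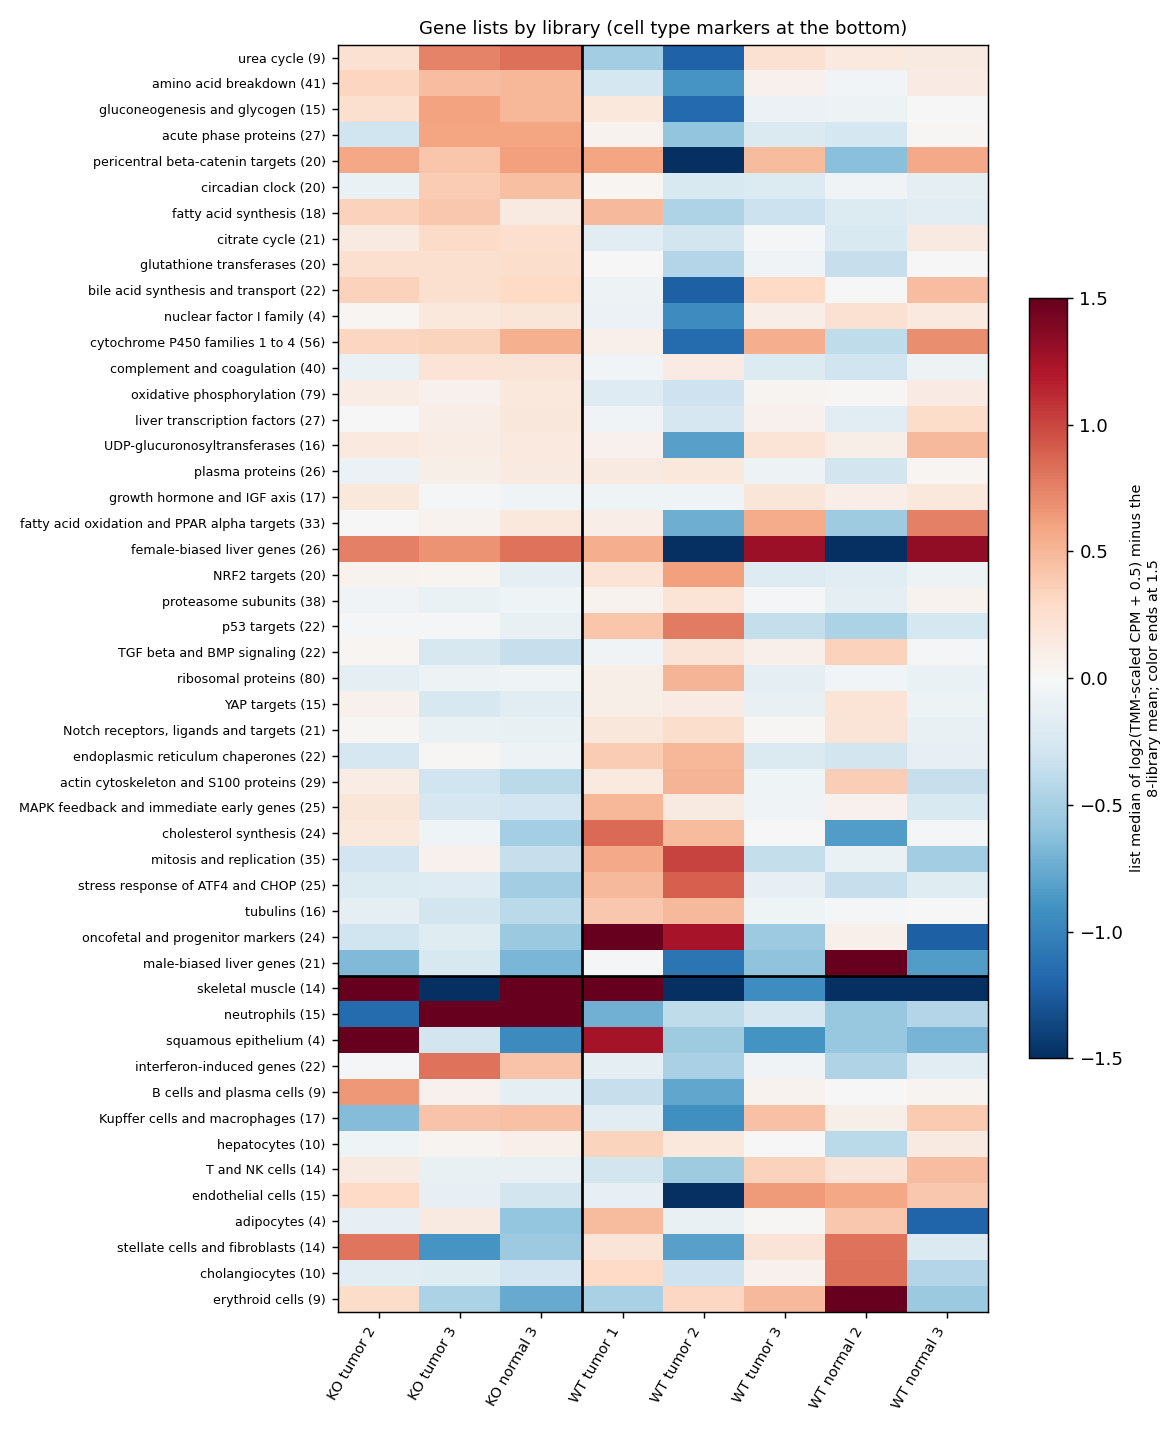
Median over each gene list of log2(TMM-scaled CPM + 0.5) minus the mean over the 8 libraries, with colors ending at 1.5 in either direction, knockout libraries to the left of the line and cell type markers below it. The amino acid row runs from −0.88 in wild-type tumor 2 to 0.50 in knockout normal 3, while the muscle row is high in knockout tumor 2, knockout normal 3 and wild-type tumor 1, the neutrophil row in knockout tumor 3 and normal 3, and the male-biased row in wild-type normal 2.

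Sex-biased genes followed single libraries. Male-biased liver genes had a median of −1.51 over 21 genes, and of −0.08 without wild-type normal 2, the library with the most Y-linked transcripts. Hsd3b5, an enzyme of male mouse liver, stood at 187 CPM in that library and at most 0.899 CPM in the others. Female-biased genes had a median of −0.08 over 26 genes, −0.35 without wild-type normal 2 and 1.04 without wild-type normal 3. Their median deviation was −4.31 in wild-type normal 2 and −2.11 in wild-type tumor 2, and 0.55 to 1.33 in the other 6 libraries. Cyp2g1 was the only separated member (3.85%, against 3.68% of all genes), and the part of sex in its values was not tested. Oncofetal and progenitor markers had a median of −0.90 over 24 genes, which was −1.76 over tumors and −0.16 over normal livers. It was −1.78 without knockout normal 3 and −0.45 without wild-type tumor 1. Their summed level was 3562 and 10875 CPM in wild-type tumors 1 and 2 and 413 to 1185 CPM in the other 6 libraries. Of these 24 genes 0 were separated, where 3.68% of all genes were above and 2.82% below.

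The tumors were also fitted alone, and the normal livers were compared within a fit of all 8 libraries. For Hes1 the difference was −1.29 over tumors and −1.37 over normal livers, for Cps1 1.22 and 1.17, for Gsta4 0.70 and 0.64, and for Tuba1b −0.65 and −0.72. Slc22a12 gave 2.01 and 4.02. These genes were chosen for separation over all libraries. Over all 13652 genes, 58.7% had the same sign in both tissues, and the fitted differences of the tissues correlated at 0.41. Tumor and normal libraries of number 3 correlated at 0.988 in wild type and 0.98 in knockout and may share animals. The comparisons in tumors and in normal livers may therefore not be independent. The normal side rests on 1 knockout library, so the test that follows can detect little. The test of whether the genotype difference varied with tissue called 0 of 13652 genes (0%) in edgeR, in limma-voom and in DESeq2, with 33 genes at an unadjusted p of 0.05. Its smallest adjusted p was 1.0, so no tissue-specific difference was detectable with these libraries. The genes with the smallest unadjusted p in each direction were Exoc4, a subunit of the exocyst, at −0.24 over tumors and 1.01 over normal livers, and A430105I19Rik, at 0.18 and −1.08. Next came Tnnc1 and Myh7, genes of slow muscle, at 0.14 and 3.37 and at −0.75 and 9.18, and muscle transcripts were high in knockout normal 3. Plvap, of fenestrated endothelium, gave 0.25 and −1.05, and Nrxn2, a neurexin, 0.58 and −2.13. The median of the amino acid list was 0.71 over tumors and 0.42 over normal livers, that of the Notch list −0.15 and −0.37, and that of the tubulins −0.65 and −0.26.

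**Figure D5:**
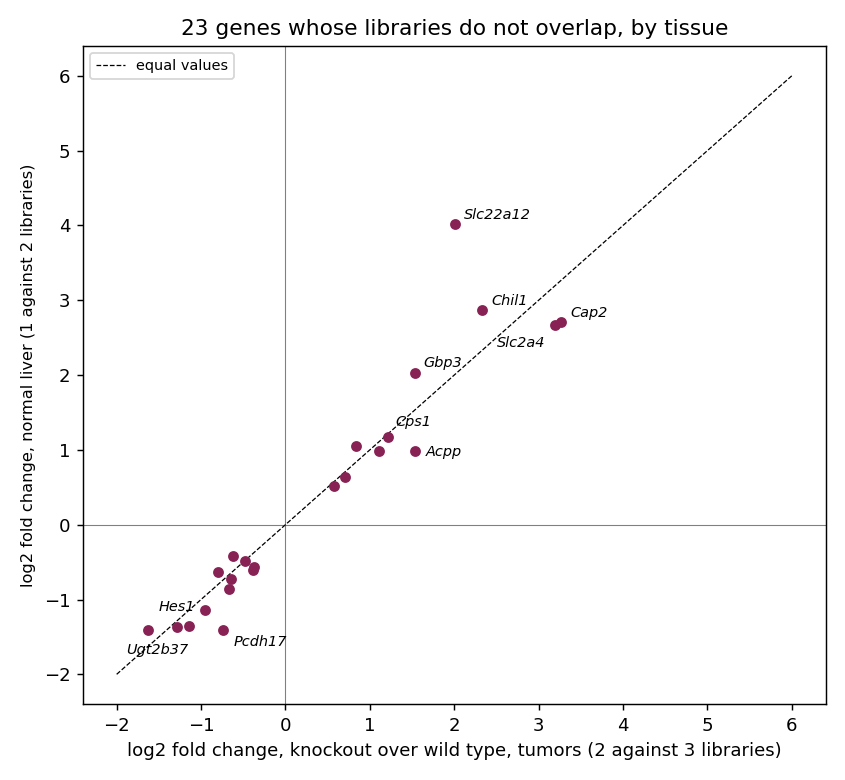
Fitted log2 fold change between genotypes, positive where knockout is higher, in tumors (2 against 3 libraries, horizontal axis) and in normal liver (1 against 2 libraries, vertical axis) for 23 of the separated genes, with a dashed line of equal values. All share a sign in both tissues because they were chosen for separation over all libraries, and Slc22a12 lies farthest above the line.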

How the data were processed

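Poly(A)-selected, stranded libraries of mouse liver RNA were sequenced, per the labels' protocols. The authors deposited a table of raw counts per gene and a table of FPKM values. Bowtie 0.12.2 and the builds mm8 and mm9 are named in the submitters' processing notes, and the counting method is not given in the sources used here. The deposited files hold 16 further per-library columns that were not used. The deposited FPKM values served for alternatives, as log2(FPKM + 0.1).

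Counts were fitted in edgeR 4.0.16 (R 4.3.3) with TMM factors, a robust quasi-likelihood fit and an additive model of genotype and tissue. Genes needed 10 counts in 3 libraries. P-values were adjusted by the Benjamini-Hochberg method over 13652 genes, at a threshold of 0.05, and the common biological coefficient of variation was 0.393. DESeq2 1.42.0 and limma-voom (limma 3.58.1) were alternatives, with other scalings, filters, the tumors alone and each library left out. The normal livers were compared within a fit of all 8 libraries with a mean for each group of genotype and tissue. P-values over normal livers therefore rest also on the spread among tumors, unlike a fit of normal livers alone. The procedure was tested on simulated data. No 2 libraries held identical values. The labels do not say that libraries came from separate animals, so p-values measure only the spread between these samples, which may be technical. Equal replicate numbers were not taken to pair the genotypes, since the labels do not state it. 

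Named genes were Nfib and its family, the urea cycle list, the 12 separated genes of smallest p and a mean of at least 1 CPM in each direction, the 2 members of each list with the smallest p, and for the genotype by tissue difference 3 genes per direction. Members of lists with a separated gene were named beyond that after their values were seen. Members and the 51 lists were chosen with earlier results of these data known. Values of 2 of the named genes are not reported here. Gene positions are from GENCODE on GRCm38.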

Additional observations from a re-analysis of the deposited data

Results flagged for a closer look

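Among the 5 wild-type libraries, 1 library stood far from the other 4 for 13 named genes. With a criterion that chance meets in about 1 in 20 groups, some of the 126 named genes would be expected to meet it. Wild-type tumor 1 held the highest Fasn (649 CPM, next 317), a fatty acid synthase, and the highest muscle transcripts Mylpf (6.29 CPM, next 1.17), Ckm (12.9 CPM, next 1.63), Myh7 (6.53 CPM, next 0.423) and Cox8b (1.02 CPM, next 0.121). Wild-type tumor 2 held the highest Sirpa (56.6 CPM, next 46.6), Rpl22l1 (41.8 CPM, next 21.5) and Timp1 (15.6 CPM, next 3.84), and the lowest Acss2 (35.4 CPM, next 95.6). Wild-type normal 2 held the highest Hes6 (68.9 CPM, next 43.9), Hsd3b5 (187 CPM, next 0.899) and the globin Hba-a2 (170 CPM, next 63.4). Wild-type tumor 3 held the highest Slc22a12 (0.725 CPM, next 0.357).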

How the results depend on the processing

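edgeR called 0 genes in either direction under every alternative run with it, except that 2 stood higher without knockout tumor 2 (0 to 2 over the libraries left out). DESeq2 called 20 higher and 8 lower. Genes at an unadjusted p of 0.05, 490 higher and 418 lower, became 306 and 187 with libraries of equal genotype and number taken as 1 source in a random effect, which the labels do not state, 121 and 115 over tumors, 98 and 97 over normal livers, and 129 and 83 without both muscle-rich knockout libraries. DESeq2 gave 628 lower and limma on log2 FPKM 271 higher. Leaving out 1 library gave 151 to 616 higher and 120 to 797 lower, and 595 to 1511 and 494 to 1154 separated genes. The cause was not tested, beyond the smaller number of samples. With the replicate number as a block, 0 genes were called, 432 and 292 had an unadjusted p under 0.05, and no call changed. Residuals of same-numbered libraries of the 2 genotypes correlated at −0.31, 0.10 and −0.23 after genotype and tissue were fitted. Tumor and normal libraries of 1 genotype and number correlated at −0.06 (wild type 2), 0.45 (wild type 3) and −0.24 (knockout 3). With so few libraries the fit itself makes residuals depend on one another, so these values cannot show whether equal numbers mark pairs. The numbers were not taken as pairs of genotypes because the labels do not state it.

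Of 3010 alternative values for 126 named genes, 2955 kept their direction and side of the threshold, 20 passed it and 35 reversed. No gene passed the threshold in the main fit, so the kept values show little beyond direction. Many of these genes were chosen for a small p or for separation. Without both muscle-rich libraries the reversed values were Rpl3l −1.42, Cox8b −2.56, Des −1.12, Mylpf −1.35, Ckm −3.48, Krt5 −3.01, Myh7 −5.10, Exoc4 −0.16, Fabp4 0.26, Cidea 1.16, A430105I19Rik 0.02 and Nrxn2 0.01. Over normal livers they were Lor −0.28, Krt5 −4.52, Otc −0.01 and Nfix −0.08. Over tumors they were Cidea 0.24, Exoc4 −0.24, Myh7 −0.75, A430105I19Rik 0.18, Plvap 0.25 and Nrxn2 0.58. Cidea was 0.25 with no tissue term and 0.76 with the replicate block. With 1 library left out, values ran from −1.83 to 0.05 for Marco, −3.18 to 3.28 for Krt5, −2.89 to 0.36 for Cidea, −0.25 to 0.44 for Exoc4, −0.77 to 5.13 for Myh7, −0.45 to 0.16 for A430105I19Rik, −0.52 to 0.23 for Plvap and −0.82 to 0.56 for Nrxn2. Of 539 list medians, 45 changed sign. With library totals, the UDP-glucuronosyltransferases moved from 0.02 to −0.03 and the plasma proteins from 0.02 to −0.01.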
